A study of Mus musculus with 28 samples.

Results

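The histone deacetylase family was followed in mice of a Myt1l knockout line through 10 genes: Hdac1, Hdac2, Hdac3, Hdac4, Hdac5, Hdac6, Hdac7, Hdac8, Hdac10 and Hdac11. They were taken by gene symbol, 10 of the 13846 genes listed for embryonic cortex and of the 14104 listed for adult prefrontal cortex (PFC), and all 10 passed the filter on low values in both tables. Hdac6 was selected on its lower CPM in mutant embryos, so its embryonic values are given as a description with no test. RNA was sequenced from embryonic (E14.5) cortex of wild-type (WT, 6 libraries), heterozygous (Het, 6) and homozygous (Hom, 4) embryos, and from adult PFC of WT (6) and Het (6) mice. Embryos labelled female numbered 5 of 6 in WT, 3 of 6 in Het and 3 of 4 in Hom, and both PFC groups were balanced, with 3 mice of each sex. The labels give each library its own animal identifier, a genotype of WT, Het or Hom for Myt1l and no other allele or treatment, and no age for the adults beyond that word. The study asked how the transcriptome changes when MYT1L, a zinc-finger transcription factor of neurons, is lost.

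Histone deacetylases remove acetyl groups from lysines of histones and other proteins. Class I enzymes (Hdac1, Hdac2, Hdac3, Hdac8) are mainly nuclear; Hdac1 and Hdac2 are the catalytic subunits of the SIN3, NuRD and CoREST corepressor complexes, and Hdac3 that of the NCoR/SMRT complex. Class IIa enzymes (Hdac4, Hdac5, Hdac7) have weak catalytic activity of their own, bind MEF2 transcription factors and leave the nucleus when phosphorylated and bound by proteins of the Ywha family. Class IIb holds Hdac6, a cytoplasmic deacetylase of alpha-tubulin, cortactin and Hsp90 that also binds ubiquitin, and Hdac10, a polyamine deacetylase. Hdac11 is the only enzyme of class IV and removes long-chain fatty acyl groups from lysines. In the developing cortex, Hdac1 and Hdac2 act redundantly in progenitors and newborn neurons. MYT1L is known to recruit SIN3-type corepressors, which contain Hdac1 and Hdac2, to its targets.

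Promoters of 3 members are shown because these genes stood at the ends of the differences described next: Hdac6 had the lowest mutant level relative to WT, Hdac2 the highest, and Hdac4 was lower in Hom embryos and had the largest PFC difference. Each sequence is the 250 bases before the RefSeq gene start (GRCm38.p6), 5′ to 3′ on the gene's strand, and capitals mark the letters AAGTT or their reverse complement AACTT, the core recognised by zinc fingers of the MYT1 family. The Hdac6 window is chrX:7947890-7948139 on the minus strand, the Hdac2 window chr10:36974294-36974543 on the plus strand, and the Hdac4 window chr1:92180342-92180591 on the minus strand, inside the gene's GENCODE span.
Hdac6: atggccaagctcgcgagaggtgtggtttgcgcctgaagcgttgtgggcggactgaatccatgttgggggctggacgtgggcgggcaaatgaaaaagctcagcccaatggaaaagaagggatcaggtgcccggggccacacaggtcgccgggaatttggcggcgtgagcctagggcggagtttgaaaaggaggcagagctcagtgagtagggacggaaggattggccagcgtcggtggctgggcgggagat
Hdac2: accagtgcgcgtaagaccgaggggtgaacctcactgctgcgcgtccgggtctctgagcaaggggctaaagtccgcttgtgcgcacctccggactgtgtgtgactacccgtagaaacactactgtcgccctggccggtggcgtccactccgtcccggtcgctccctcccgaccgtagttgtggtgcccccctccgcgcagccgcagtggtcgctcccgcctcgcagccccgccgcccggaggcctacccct
Hdac4: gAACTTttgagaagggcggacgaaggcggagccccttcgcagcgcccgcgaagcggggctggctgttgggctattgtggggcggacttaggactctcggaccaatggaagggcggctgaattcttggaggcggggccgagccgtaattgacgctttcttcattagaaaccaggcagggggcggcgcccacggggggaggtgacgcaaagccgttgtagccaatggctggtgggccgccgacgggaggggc

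The Hdac6 and Hdac2 windows held no AAGTT core on either strand, and the Hdac4 window held 1, on the minus strand of the gene. Of 32851 promoter windows of this length in the RefSeq table, 11607 (35.3%) held at least 1 core. These matches are letters in a window and were not tested for binding. GC content was 61.2% in the Hdac6 window, 68.8% in the Hdac2 window and 65.2% in the Hdac4 window, above the median of 52.4% over all windows. The table held 7 of the 10 members.

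Myt1l itself was at 36.4% of its WT mean in Hom embryos, 77.1% in Het embryos (limma adjusted p = 0.125) and 72.3% in Het PFC. Values are CPM (read numbers scaled to the size of the library), recovered from the log2 CPM that the authors deposited after removing unwanted variation with RUVr, and sequencing depth is unknown. The libraries labelled Het F10 and Het M11 go against their labelled sex, since the Y-linked Ddx3y measured 21.6 CPM in the former and 0 in the latter. All 9 cortical neuron markers were listed in both tissues. At E14.5 they summed to 6238 to 7212 CPM in WT, 5684 to 6841 CPM in Het and 5556 to 6486 CPM in Hom, with 2 higher and 1 lower in Hom (median log2 difference 0.33) and 3 higher and 1 lower in Het (median 0.27). The 7 astrocyte markers summed to 1190 to 1307 CPM in WT, 965 to 1251 CPM in Het and 986 to 1044 CPM in Hom. Aldoc made up the larger part of this sum, with means of 881 CPM in WT, 668 in Het and 654 in Hom. It was the 1 of 5 tested that was lower in both comparisons, so the sum mostly reflects 1 gene. The summed choroid plexus markers, led by Ttr, ran from 1389 to 3970 CPM in WT, 2990 to 5180 CPM in Het and 1582 to 2870 CPM in Hom, with Kl and Prlr absent from the E14.5 table. The ventral telencephalon markers summed to 25.4 to 57.6 CPM in WT, 32.3 to 95.5 CPM in Het and 37.6 to 122 CPM in Hom, with Nkx2-1 absent from the table, and 2 of 8 tested were higher in Hom. The part of these markers in the member differences at E14.5 was not tested.

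In WT E14.5 cortex, class I transcripts made up most of the family, and Hdac1 alone the larger part. Levels of different genes were compared as CPM per kb of the longest annotated transcript. On that scale Hdac1 was at 175 ± 6.54 (SD, n = 6), Hdac3 at 52.7 ± 3.08, Hdac2 at 27.0 ± 2.41 and Hdac6 at 13.8 ± 1.36, and the library ranges of these 4 genes did not overlap from one to the next. Hdac4 (9.99), Hdac8 (8.02) and Hdac10 (6.70) followed, with ranges that overlapped between neighbours. Hdac7 (3.28), Hdac11 (1.95) and Hdac5 (1.87) were lowest, each overlapping the next. Within each library, class I held 87.5% ± 0.520 (SD, n = 6) of the summed level per kb of the 10 genes, and Hdac1 alone held 58.3% ± 1.16.

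Between genotypes at E14.5, Hdac1 and Hdac3 were lower and Hdac2 higher in both Hom and Het embryos, and Hdac4 was lower in Hom (limma, Benjamini-Hochberg adjusted p under 0.05 over all 12429 tested genes). In Hom against WT, 4 of the 9 members other than Hdac6 were called, 1 higher and 3 lower, where 7.60% of all tested genes were called. The groups did not overlap for 3 of the 9 (Hdac1, Hdac2 and Hdac3), where 9.90% of all genes had separate groups. In Het against WT, 3 of 9 were called where 5.83% of all genes were, and 1 (Hdac1) had separate groups where 2.57% did. The median difference over the 9 members other than Hdac6 was -0.12 in Hom and -0.13 in Het on the log2 scale, beside 0.02 and 0.03 over all tested genes. Both comparisons use the same 6 WT libraries and are therefore not independent. The Hom count fell to 0 without Hom F04, to 1 without Hom F01, Hom F09, Hom M02, WT F04 or WT F09, and to 2 without WT F06 or WT F12. The Het count fell to 1 without Het F02 or Het F07 and rose to 5 without Het F10. The share of all tested genes called without each library is not given here, so these changes cannot be set against it.

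**Figure D1:**
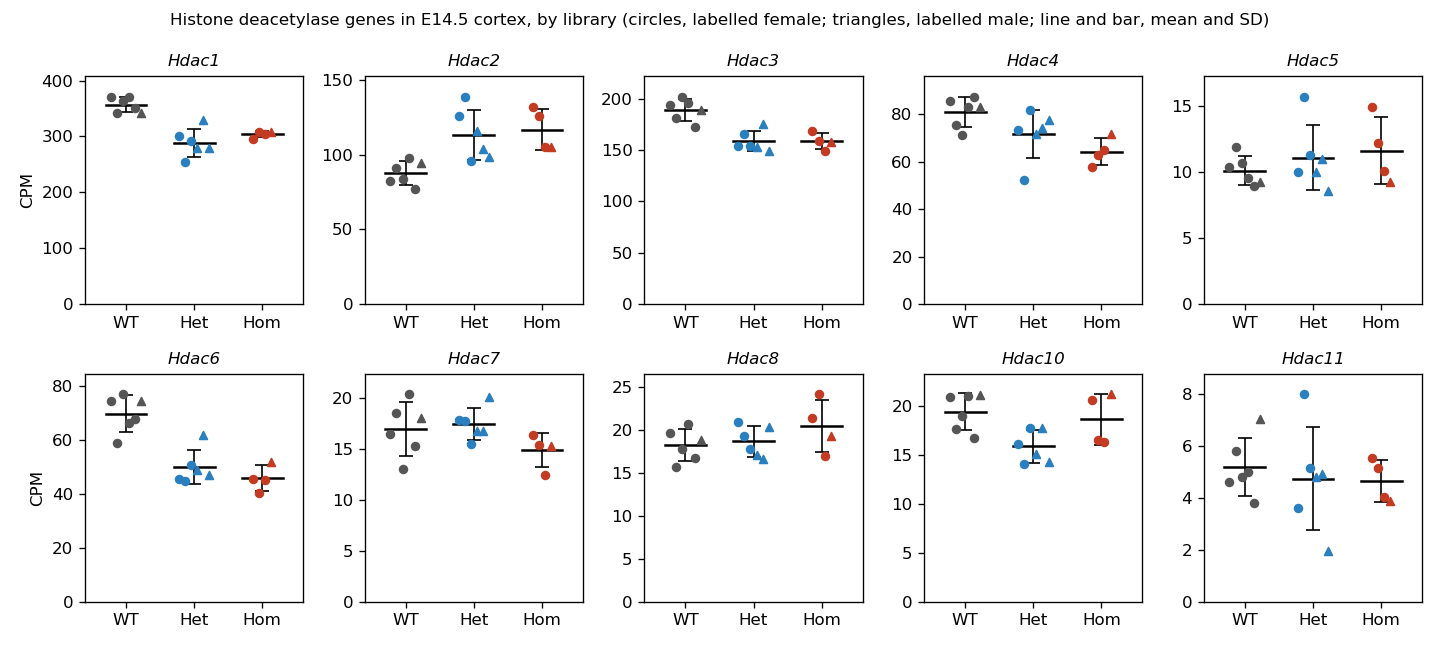
CPM of the 10 genes in each E14.5 cortex library (vertical axis from 0, horizontal axis genotype), with group mean and SD. The WT libraries of Hdac6 (58.7 to 76.8 CPM) lie above all Hom libraries (40.3 to 51.9 CPM), and those of Hdac2 (77.3 to 97.8 CPM) lie below them (105 to 132 CPM).

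Hdac1 (ENSMUSG00000028800) lies on chromosome 4, 129516104 to 129542713, minus strand (GRCm38, as are all coordinates here). In WT it measured 342 CPM at the lowest, 357 at the median and 371 at the highest library. The 6 Het libraries ran from 254 (F07) through a median of 285 to 329 (M07), and the Hom libraries were at 296, 305, 307 and 308 CPM. All 10 mutant libraries thus lay below the lowest WT library. The difference from WT was -0.31 (SE 0.06, adjusted p = 0.00648) in Het and -0.23 (SE 0.07, adjusted p = 0.033) in Hom, as differences in log2(CPM + 0.5). The Hom call was lost in 11 of 29 alternatives, 8 of which left out 1 library (adjusted p = 0.0916 without Hom F01). The other 3 were the 2 directions removed by RUVr as covariates (adjusted p = 0.0784), voom (0.0562) and no trend or robust settings (0.0887). The Het call held in all 29. Of 1989 windows of 50 bases in the longest Hdac1 transcript, 1167 (58.7%) also occur in transcripts of other annotated genes, mostly Gm10093, so reads of Hdac1 and these copies cannot be fully told apart.

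Hdac2 (ENSMUSG00000019777, chromosome 10, 36974544 to 37001889, plus strand) moved the other way. WT libraries ran from 77.3 through a median of 87.4 to 97.8 CPM. Het libraries ran from 96.2 (F10) through a median of 110 to 139 (F07), and Hom libraries were at 105, 105, 126 and 132 CPM. All Hom libraries lay above all WT libraries, while Het F10 lay within the WT range. The log2 difference was 0.42 (SE 0.10, adjusted p = 0.0125) in Hom and 0.39 (SE 0.09, adjusted p = 0.0158) in Het. The Hom call was lost without Hom F01 (0.36, adjusted p = 0.0594) or Hom F04 (0.39, adjusted p = 0.0501), and the Het call without Het F02 (0.35, adjusted p = 0.0555) or Het F07 (0.31, adjusted p = 0.0944). No window of 50 bases of its longest transcript occurs in another gene's transcripts.

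As a ratio of levels per kb, chosen after the values of both genes were seen and given with no test, Hdac2 over Hdac1 was 0.155 ± 0.0153 (SD, n = 6) in WT, 0.249 ± 0.0536 (SD, n = 6) in Het and 0.242 ± 0.0322 (SD, n = 4) in Hom. The WT ratios ran from 0.139 to 0.173, below the lowest Het ratio of 0.197 (M07) and the lowest Hom ratio of 0.214 (M02). The share of Hdac2 in the family's summed level per kb was 9.00% in WT and 13.4% in both Het and Hom.

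**Figure D2:**
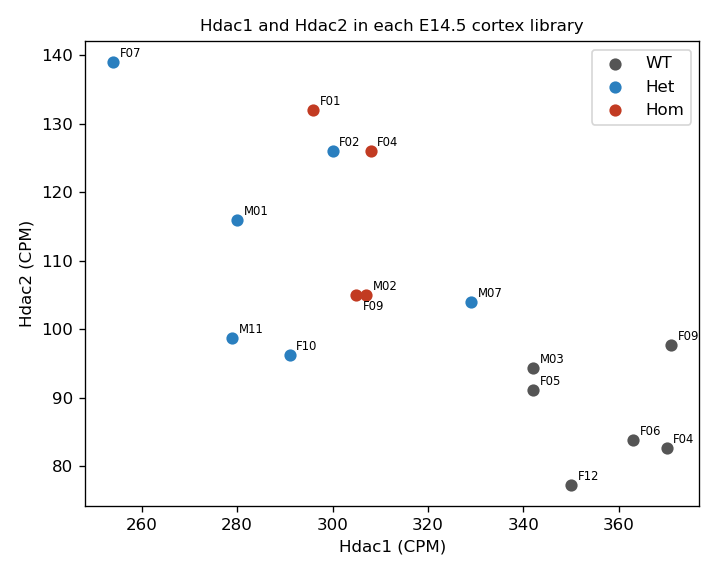
Hdac1 CPM (horizontal axis) against Hdac2 CPM (vertical axis) in the 16 E14.5 cortex libraries, coloured by genotype and named by replicate. The WT libraries lie at the lower right (Hdac1 at 342 CPM or more, Hdac2 at 97.8 CPM or less) and Het F07 at the upper left (254 and 139 CPM).

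Hdac3 (ENSMUSG00000024454), the deacetylase of NCoR/SMRT, lies on chromosome 18 from 37935844 to 37955016. It ran from 172 through a median of 192 to 202 CPM in WT, and from 149 through 154 to 175 CPM in Het. The Hom libraries were at 149, 158, 159 and 169 CPM. All Hom libraries lay below all WT libraries, while the highest Het library (M07, 175 CPM) reached above WT F12 (172 CPM). The log2 difference was -0.25 (SE 0.07, adjusted p = 0.0281) in Hom and -0.25 (SE 0.06, adjusted p = 0.0235) in Het, and 8 of 29 and 7 of 29 alternatives took the adjusted p above the threshold. Hdac8, an X-linked class I enzyme that deacetylates cohesin, measured 18.2 CPM ± 1.83 (SD, n = 6) in WT, 18.6 ± 1.78 (SD, n = 6) in Het and 20.4 ± 3.06 (SD, n = 4) in Hom, with overlapping groups. Its log2 difference was 0.16 (95% interval -0.08 to 0.40) in Hom and 0.05 (-0.17 to 0.28) in Het.

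Of the class IIa genes, Hdac4 (chromosome 1, 91928779 to 92195699, minus strand) was lower in Hom. WT libraries ran from 71.3 through a median of 82.9 to 87.4 CPM, and the Hom libraries were at 57.7, 62.7, 65.1 and 71.6 CPM, so that Hom M02 reached the lowest WT library. The Het libraries ran from 52.1 (F07) through 73.6 to 81.9 (F10). The log2 difference was -0.34 (SE 0.10, adjusted p = 0.0327) in Hom, a call lost in 11 of 29 alternatives, among them a correction for GC content and length (-0.27, adjusted p = 0.078). A lincRNA gene on the other strand, Gm26720, overlaps the exons of Hdac4 by 3536 bases. In Het it was -0.23 (SE 0.09, adjusted p = 0.142), and -0.32 (adjusted p = 0.038) without the 2 Het libraries that go against their labelled sex. Without Het F07 the Het difference was -0.11 (adjusted p = 0.506). Within the identifier prefixes of the animals the Het difference of means was -0.05 (4 against 4) and -0.46 (2 against 2).

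Hdac5 and Hdac7, the other class IIa genes, did not pass the test in either comparison. Hdac5 averaged 10.1 CPM ± 1.13 (SD, n = 6) in WT, 11.1 ± 2.44 in Het and 11.6 ± 2.52 in Hom, a log2 difference of 0.20 in both (95% interval -0.11 to 0.50 in Hom and -0.08 to 0.48 in Het). Its highest libraries were Het F07 at 15.7 CPM and Hom F01 at 14.9 CPM. Hdac7, which is known for its role in vascular endothelium, averaged 17.0 CPM ± 2.64 in WT, 17.5 ± 1.55 in Het and 14.9 ± 1.66 in Hom. Its log2 difference was -0.18 (-0.44 to 0.08) in Hom and 0.03 (-0.22 to 0.27) in Het. The 8 endothelial markers summed to 47.1 to 116 CPM in WT, 56.7 to 114 CPM in Het and 42.7 to 89.9 CPM in Hom, and their part in these values was not tested. Exons of Hdac7 overlap Slc48a1 on the other strand by 29 bases.

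Hdac6 (ENSMUSG00000031161, X chromosome, 7930120 to 7947889, minus strand) had the widest gap between mutants and WT, which is what it was selected for. WT libraries were at 58.7, 66.2, 67.5, 74.3, 74.5 and 76.8 CPM. Het libraries were at 44.7, 45.4, 47.0, 48.9, 50.5 and 61.8 CPM, and Hom libraries at 40.3, 45.2, 45.5 and 51.9 CPM. All Hom libraries lay below all WT libraries, and among Het libraries only M07 (61.8 CPM) reached above the lowest WT library, F05. The means were 69.7 CPM ± 6.84 (SD, n = 6), 49.7 ± 6.32 (SD, n = 6) and 45.7 ± 4.79 (SD, n = 4), which put Het at 71.4% and Hom at 65.6% of WT. The log2 difference was -0.54 in Het and -0.62 in Hom. Over all 29 alternatives it stayed between -0.58 and -0.47 and between -0.66 and -0.55. Within identifier prefixes, the Hom difference of means was -0.66 (3 against 4) and -0.43 (1 against 2), and the Het difference -0.44 (4 against 4) and -0.58 (2 against 2). The alternatives and the prefixes use the values that selected Hdac6, so they describe its fall and do not test it.

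Because Hdac6 is X-linked, its values were also read by labelled sex. Female WT libraries averaged 68.7 CPM ± 7.21 (SD, n = 5) and the male WT library was at 74.3 CPM. Female Het libraries averaged 46.9 CPM ± 3.19 (SD, n = 3) and male Het libraries 52.6 ± 8.08 (SD, n = 3), while female Hom libraries averaged 43.7 ± 2.95 (SD, n = 3) and the male Hom library was at 51.9 CPM. Het F10 (50.5 CPM), averaged here as female, and Het M11 (47 CPM), averaged as male, go against their labelled sex by Ddx3y. The mutant values lay below WT for both labelled sexes, with 1 WT library labelled male. Because Hdac6 was selected on this fall, the split by sex is a description and no test of it. Hdac10, the other class IIb gene, averaged 19.4 CPM ± 1.90 in WT, 15.9 ± 1.64 in Het and 18.6 ± 2.60 in Hom. The WT mean lay above each of the 6 Het libraries, but the difference of -0.31 (SE 0.11) did not pass (adjusted p = 0.093), except without Het F10 (-0.37, adjusted p = 0.0482). In Hom it was -0.07 (-0.31 to 0.18).

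Hdac11, the class IV gene, was near the bottom of the order at E14.5. It averaged 5.18 CPM ± 1.12 (SD, n = 6) in WT, 4.75 ± 1.99 in Het and 4.65 ± 0.814 in Hom, with a Het range of 1.96 (M11) to 8.00 CPM (F07). The log2 difference was -0.12 (-0.62 to 0.38) in Hom and -0.13 (-0.60 to 0.34) in Het. Gm44002 (annotated type TEC) and Gm14573 (annotated as antisense), both on the other strand, overlap its exons by 594 and 96 bases. Strand use in the counting is not given in the sources used here.

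The test of Hom against Het called none of 9 members, and 0 at an unadjusted p under 0.05, where 0.00805% of all genes were called (1 gene, Myt1l) and 636 of 12429 had an unadjusted p under 0.05. The log2 differences ran from -0.21 (Hdac7, 95% interval -0.47 to 0.06) to 0.24 (Hdac10, -0.00 to 0.49). For Hdac6 the difference was -0.07. A p above the threshold does not show that Hom and Het embryos were alike in these genes.

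**Figure D3:**
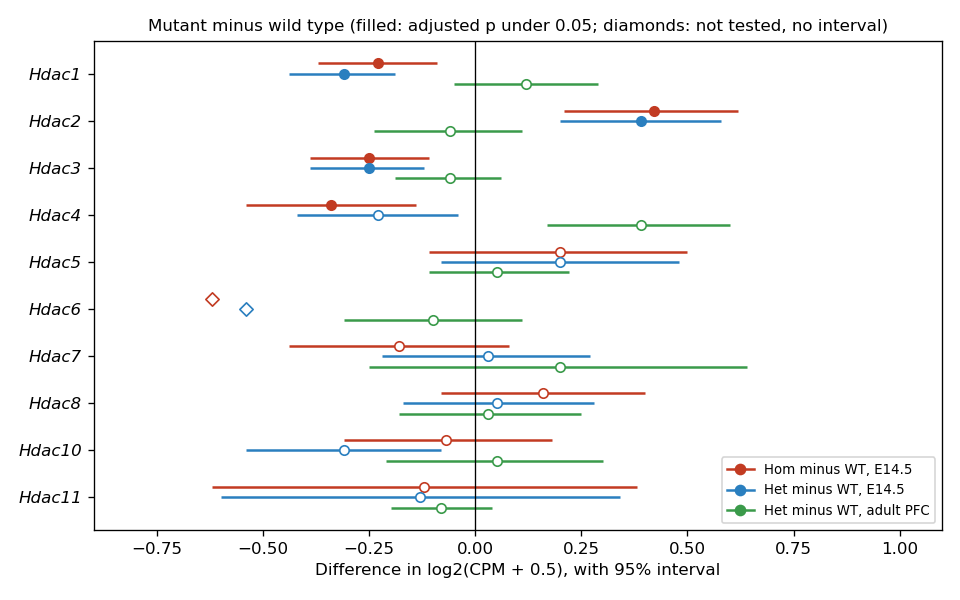
Difference from WT in log2(CPM + 0.5) with its 95% interval (horizontal axis) for each gene and for Hom at E14.5, Het at E14.5 and Het in adult PFC, with no interval for Hdac6 at E14.5. Filled points passed the test: Hdac1, Hdac2 and Hdac3 in both embryonic comparisons and Hdac4 in Hom, and no gene in the PFC, where Hdac4 has the largest difference (0.39).

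In adult PFC, none of the 10 genes was called in Het against WT, where 0.404% of 12870 tested genes were called. None had separate groups, where 0.668% did. The test gave 1 of the 10 an unadjusted p under 0.05, beside 1749 of all 12870 genes. Hdac4 came nearest. WT libraries were at 22.2, 28.3, 28.8, 29.4, 31.0 and 36.6 CPM and Het libraries at 31.0, 35.3, 36.1, 39.2, 43.8 and 45.0 CPM. All 6 Het libraries lay above the WT mean of 29.4 CPM, and WT M07 (36.6 CPM) lay within the Het range. The log2 difference was 0.39 (SE 0.10, 95% interval 0.17 to 0.60), with an unadjusted p of 9.5e-04 and a limma adjusted p of 0.0851. Over 23 alternatives it ran from 0.30 to 0.45, and 21 of them left it uncalled. It was called only without WT M07, the highest WT library, or without Het M09, the lowest Het library. The difference was then 0.45 in both, with a limma adjusted p of 0.0308 and 0.033. The embryonic Het difference of the same gene was -0.23, and the difference between the tissues was not tested because their tables were normalized separately.

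Hdac6 in adult PFC was at 19.7, 20.8, 22.3, 22.7, 23.1 and 26.4 CPM in WT and at 17.1, 17.5, 21.1, 21.4, 23 and 26.3 CPM in Het. The Het range spanned most of the WT range, and the log2 difference was -0.10 (95% interval -0.31 to 0.11, adjusted p = 0.697). Hdac1 differed by 0.12 (-0.05 to 0.29), Hdac2 by -0.06 (-0.24 to 0.11) and Hdac3 by -0.06 (-0.19 to 0.06), so that none of the 3 class I genes called at E14.5 was called here. Hdac11, from 122 to 139 CPM in WT and from 115 to 128 CPM in Het, had all 6 Het libraries below the WT mean of 129 CPM, with a difference of -0.08 (-0.20 to 0.04). For Hdac5 (0.05), Hdac8 (0.03) and Hdac10 (0.05) the difference was small against intervals that spanned 0. Hdac7 averaged 3.07 CPM ± 1.43 (SD, n = 6) in WT and 3.46 ± 1.06 (SD, n = 6) in Het, and its interval was the widest (-0.25 to 0.64).

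**Figure D4:**
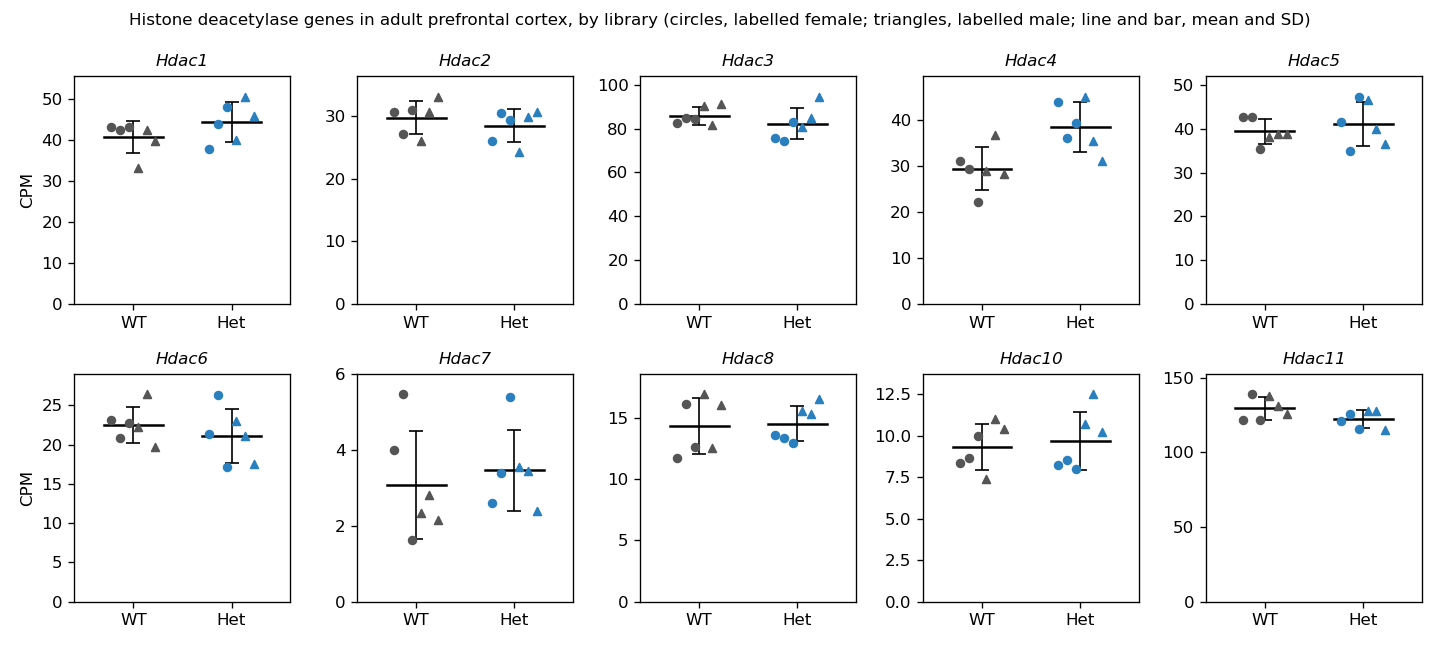
CPM of the 10 genes in each adult PFC library (vertical axis from 0, horizontal axis genotype), with group mean and SD. Het and WT libraries overlap for each gene, and Hdac4 is the one with all 6 Het libraries at or above 31.0 CPM against a WT mean of 29.4 CPM.

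Sex was balanced in the PFC, and there none of the 10 genes was called between labelled females and males (0 at an unadjusted p under 0.05), where 1.09% of all genes were called (2324 at an unadjusted p under 0.05). Of the X-linked pair, Hdac6 averaged 21.9 CPM in females and 21.7 CPM in males, a log2 difference of 0.01 (-0.20 to 0.23), and Hdac8 averaged 13.4 and 15.4 CPM, a difference of -0.20 (-0.42 to 0.02, adjusted p = 0.311). The interaction of genotype and sex called 0 of 10 members (0 at an unadjusted p under 0.05) and 0% of all genes (1092 at an unadjusted p under 0.05). Interaction estimates ran from -0.33 to 0.29 on the log2 scale.

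The make-up of the family differed between embryonic cortex and adult PFC more than between genotypes, a description without a test since tissue, age and table change together. In WT PFC, Hdac11 led at 48.8 CPM per kb ± 2.82 (SD, n = 6), ahead of Hdac3 (23.9), Hdac1 (16.3 to 21.2 over the libraries) and Hdac2 (9.14), and each of these 4 was separate from the next. Hdac5 (7.29), Hdac8 (6.30), Hdac6 (4.47), Hdac4 (3.63) and Hdac10 (3.22) formed a run of overlapping neighbours, and Hdac7 was lowest at 0.593. The share of Hdac1 in the summed level per kb of a library was 58.3% at E14.5 and 15.7% ± 1.58 in PFC, and that of Hdac11 was 0.651% and 38.3% ± 1.63. Hdac5 went from 0.624% to 5.72%, while Hdac3 held 17.5% and 18.8%. Class I held 46.6% ± 1.63 of the sum in PFC, against 87.5% at E14.5. The oligodendrocyte markers summed to 45.6 to 88.7 CPM over all E14.5 libraries, with Mag and Mobp absent from that table, and to 3857 to 4722 CPM in PFC. The astrocyte markers, at E14.5 mostly Aldoc, summed to 965 to 1307 CPM over all E14.5 libraries and to 3674 to 4388 CPM in PFC. Their part in these shares was not tested, and in bulk tissue fewer cells of a type and less RNA per cell cannot be told apart.

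**Figure D5:**
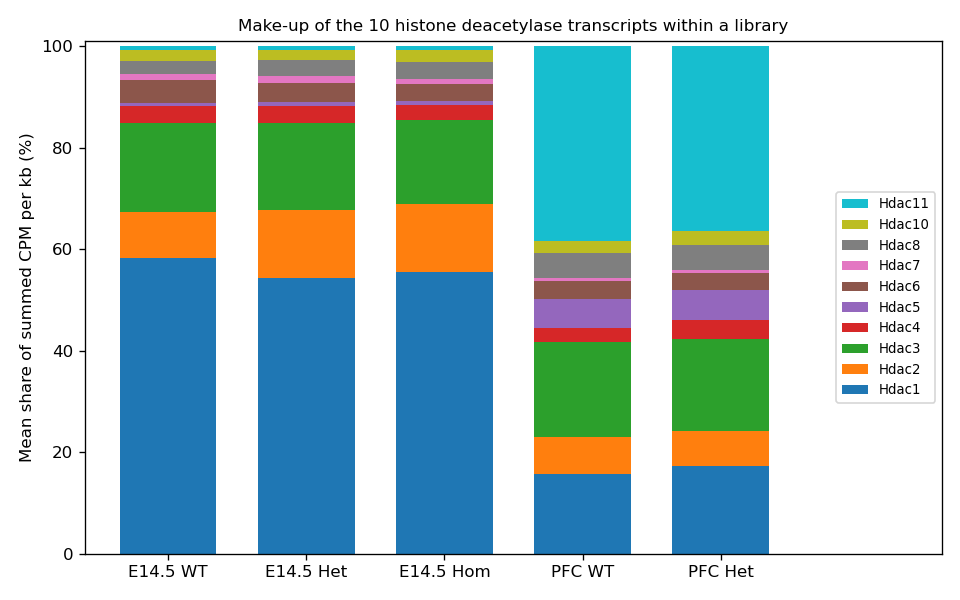
Mean share of each gene in the summed CPM per kb of the 10 genes (vertical axis, percent) for the 5 groups. Hdac1 fills 58.3% of the WT E14.5 bar and 15.7% of the WT PFC bar, where Hdac11 fills 38.3%.

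Genes that work with these enzymes were followed through 9 lists with 113 genes, of which 107 were tested at E14.5. In Hom, 12 were called (11.2%, 4 higher and 8 lower, median log2 difference 0.03), beside 7.60% of all genes, and in Het 10 (9.35%, 2 higher and 8 lower, median 0.02), beside 5.83%. The Hom count was 6 without Hom F09 and 7 without Hom M02 or WT F04, and the Het count 4 without Het F07 and 6 without WT F04. All-gene shares without these libraries are not given here. None of 107 was called in Hom against Het or in PFC, except 1 in PFC without Het M09. In either embryonic comparison, 0 of 14 SIN3 genes, 0 of 11 NuRD genes, 0 of 5 NCoR/SMRT genes and 0 of 2 tested MiDAC genes were called. The count was also 0 of 7 sirtuins and 0 of 17 histone acetyltransferases. At the all-gene shares of 7.60% and 5.83%, lists this short would hold few calls in any case. Of 10 CoREST genes, 1 was called in Hom and 0 in Het. It was Rcor2, a CoREST scaffold of neural progenitors, at 9.10 CPM ± 0.894 (SD, n = 6) in WT and 13.0 ± 1.20 (SD, n = 4) in Hom (log2 difference 0.49, adjusted p = 0.0245). Its call was lost in 6 of 29 alternatives, among them GC and length correction (0.41, adjusted p = 0.0738) and RUVr directions as covariates (adjusted p = 0.0629).

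Apart from Rcor2, the partner calls at E14.5 were all in the lists of class IIa partners and of Hdac6 substrates and partners. Of 22 tested class IIa partners, the Ywha adapters that hold phosphorylated class IIa enzymes in the cytoplasm gave all 3 calls in Hom. Over all tested genes, 7.60% were called in Hom and 5.83% in Het. Ywhaq was at 415 CPM ± 28.1 in WT and 511 ± 38.9 in Hom (log2 difference 0.31, adjusted p = 0.0245), Ywhag rose by 0.25 (adjusted p = 0.0182) and Ywhab by 0.21 (adjusted p = 0.0398). The Ywhab call in Hom was lost in 13 of 29 alternatives, among them the identifier prefix as a block (adjusted p = 0.0613) and median centring (0.18, adjusted p = 0.082), that of Ywhaq in 5 and that of Ywhag in 3. In Het, Ywhab rose by 0.22 (adjusted p = 0.027, lost in 8 of 29 alternatives), and Camk2a, a kinase that phosphorylates Hdac4, fell by 0.97 on the log2 scale (adjusted p = 0.0102), from 5.83 CPM ± 1.73 to 3.15 ± 1.14 (SD, n = 6 and 6). The median over the list was 0.11 in Hom and 0.10 in Het, beside 0.02 and 0.03 over all tested genes.

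Of 20 genes in the Hdac6 list, 8 fell and 0 rose in Hom, and 7 fell and 1 rose in Het, with a median of -0.18 and -0.04. Over all tested genes, 7.60% were called in Hom and 5.83% in Het, with a median of 0.02 and 0.03. The list was chosen with earlier results of these data known, so its counts are a description. The alpha-tubulin genes Tuba1c (-0.51, adjusted p = 8.5e-04), Tuba1b (-0.49, adjusted p = 0.00149) and Tuba4a (-0.50, adjusted p = 0.00268) fell in Hom, and in Het Tuba1c (-0.43), Tuba1b (-0.38) and Tuba4a (-0.36, adjusted p = 0.0151) fell too. Cttn, which encodes the actin-binding substrate cortactin, fell by 0.29 on the log2 scale in Het (adjusted p = 0.0123) and by 0.28 in Hom (adjusted p = 0.015). With GC and length correction neither Cttn call held (adjusted p = 0.0534 and 0.071). Alpha-tubulin genes share much of their sequence: 83.1% of the 50-base windows of Tuba1b and 61.0% of those of Tuba1c occur in transcripts of other genes, so their reads may be split between copies, and for Tuba4a the share was 48.8%, mostly with Stk16. The Hom count of 8 was 5 without Hom F09 or Hom M02, and the Het count of 8 was 3 without Het F07 and 5 without Het M01, Hom M02, WT F04 or WT F09. Here too, all-gene shares without these libraries are not given.

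The genes whose pattern over the 16 E14.5 libraries was most like that of Hdac6, by Pearson's r of log2(CPM + 0.5), were Copg1 (r = 0.953), Mcm7 (0.951), Adsl (0.948), Pcid2 (0.947) and Def8 (0.943). Those most opposite were Snx6 (-0.936), Lsm5 (-0.934), Cfap36 (-0.928), Csnk1a1 (-0.921) and Uqcrfs1 (-0.918). After removing each group's mean, r was 0.804 for Copg1, 0.910 for Def8 and -0.873 for Snx6. These libraries share their scaling and RUVr adjustment, and the genes were picked as extremes over all tested genes, so r is a description. Over the 12 PFC libraries r was -0.044 for Copg1, -0.041 for Mcm7 and 0.481 for Def8. Within the family, r with Hdac6 at E14.5 was 0.853 for Hdac3, 0.843 for Hdac1 and -0.815 for Hdac2, and 0.474, 0.579 and -0.476 after removing group means. For Hdac10 it was 0.584, and 0.646 after removing group means, the highest among the members. In PFC, r with Hdac6 was -0.580 for Hdac3, -0.268 for Hdac1, -0.087 for Hdac2 and 0.077 for Hdac10.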

How the data were processed

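Zymo extraction of total RNA preceded library synthesis with a SMARTer Ultra Low kit, per the labels' protocols. The tools were Trimmomatic, Bowtie2, STAR and HTSeq on build mm10, per the submitters' processing notes. Versions, roles and any use of strand in counting: not given in the sources used here.

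The authors deposited 1 table per tissue of log2 CPM after RUVr, which removes variation estimated from residuals. Upper-quartile scaling was inferred, since all libraries of a tissue had the same upper quartile (5.345 at E14.5 and 5.678 in PFC, log2 CPM). From the values, the prior count is 2, and undoing it gave whole numbers for 100% of entries (tolerance 0.01). These are adjusted numbers, not reads, so depth is unknown: totals ran from 27827467 to 30811856 (E14.5) and from 19601294 to 21275162 (PFC), and a step of 1 was worth 0.0339 and 0.0489 CPM. RUVr left 2 of 16 E14.5 directions and 1 of 12 PFC directions with almost no variance, which the main test does not count.

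Genes that reached 1 CPM in 4 or more E14.5 libraries, or in 6 or more PFC libraries, were fitted as log2(CPM + 0.5) with limma 3.58.1 in R 4.3.3 (lmFit, eBayes with trend and robust), with genotype and sex as labelled, all libraries of a tissue in 1 fit, and Benjamini-Hochberg adjustment over all 12429 or 12870 genes. Differences on this scale understate low genes. The fit was also run on simulated independent numbers with no RUVr step. That run cannot show how RUVr affects the p-values here. All columns were mapped to a sample. Animal numbers recur under other identifier prefixes and pair no animals. Where nothing says that libraries are from separate litters, p-values measure the spread between these animals.

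The members and lists were chosen with earlier results of these data known. Named genes are all members, Myt1l, genes whose exons overlap a member, and the 5 genes most and least correlated with Hdac6. Up to 4 called genes per partner list and comparison, with the lowest p, are named too. Cttn in Hom, Tuba4a in Het and the marker Aldoc were added after their values were seen. A gene that met this rule is not reported here. Coordinates and transcripts are from GENCODE vM21, promoters from RefSeq (GRCm38.p6). The alternatives changed the pseudocount, the filter on low values, centring, covariates, the test (voom, or no trend and not robust), GC and length correction, the groups fitted and each library left out. Figures were drawn with matplotlib 3.10.9.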

Additional observations from a re-analysis of the deposited data

Results flagged for a closer look

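Of 50 groups of member values examined for a library that stands apart from the rest of its group (by Dixon's ratio, which chance exceeds in about 1 in 20 groups), 3 were marked. Hdac6 was at 61.8 CPM in Het M07, where the other 5 Het embryos ran from 44.7 to 50.5 CPM. The same library had the Het group's highest summed markers of choroid plexus (5180 CPM), ventral telencephalon (95.5 CPM) and astrocytes (1251 CPM). Its sums were also the highest for meninges (380 CPM), microglia (91.9 CPM) and oligodendrocytes (88.7 CPM). For cortical neurons (F02, 6841 CPM), progenitors (F07), endothelium (M11, 114 CPM) and erythroid cells (F10, 18029 CPM) the highest Het sum was in another library. Hdac4 was at 52.1 CPM in Het F07 against 71.6 to 81.9 CPM in the other Het embryos; that library also had the group's lowest Hdac1 (254 CPM), its highest Hdac2 (139 CPM) and its highest summed progenitor markers (817 CPM). Hdac1 was at 33.2 CPM in PFC WT M03 against 39.8 to 43.2 CPM in the other WT adults. Without the library named, the Het log2 difference from WT was -0.58 in place of -0.54 for Hdac6 and -0.11 in place of -0.23 for Hdac4 at E14.5, and 0.06 in place of 0.12 for Hdac1 in PFC. The part of the markers in the values of the marked libraries was not tested.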

How the results depend on the processing

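Of the 9 members tested at E14.5, the number called in Hom against WT went from 4 to 1 (Hdac2) when the directions removed by RUVr became covariates, to 2 with voom and to 0 without trend and robust settings, and ran from 0 to 4 with 1 library left out. In Het against WT it went from 3 to 1 (Hdac1) without trend and robust settings, and ran from 1 to 5 with 1 library left out. In the PFC it ran from 0 to 1 (Hdac4) with 1 library left out. No alternative called a member in Hom against Het, between the sexes or in the interaction. The share of all tested genes called under each alternative is not given here. Whether these counts changed more than calls over all genes was not tested.

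The counts of partner genes were recomputed under each alternative after the data had been seen. They too are given without the share of all tested genes called under the same alternative. When the directions removed by RUVr became covariates, the count was 7 in Hom and 6 in Het, and 5 in the Het comparison for the Hdac6 list. Without trend and robust settings the Het count was 5, and the Hdac6 list held 5 calls in Hom and 3 in Het. With only the 2 groups compared in the fit, the Het count was 6 and that of the Hdac6 list 5. With 1 library left out, the partner count ran from 6 to 14 in Hom, 4 to 13 in Het and 0 to 1 in PFC, and that of the Hdac6 list from 5 to 9 in Hom and 3 to 8 in Het.

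Signs turned only for members near 0 that had not passed the test. In Het embryos the log2 difference of Hdac7 was -0.01 with median centring and with GC and length correction, that of Hdac8 was -0.05 with GC and length correction, and that of Hdac11 was 0.00 without Het F10 and Het M11. In PFC that of Hdac8 was -0.00 with the identifier prefix as a block, and the sex difference of Hdac6 was -0.01 with voom. With 1 library left out, the log2 difference ran from -0.20 to 0.06 for Hdac11 in Hom against WT at E14.5, from -0.04 to 0.08 for Hdac7 in Het against WT at E14.5, from -0.34 to 0.11 for Hdac11 in Het against WT at E14.5, from -0.03 to 0.09 for Hdac8 in Het against WT in PFC, from -0.04 to 0.10 for Hdac10 in Het against WT in PFC, and from -0.06 to 0.08 for Hdac6 between the sexes in PFC. The cause of these changes was not tested. No paired analysis was possible because the recurring animal numbers carry different identifier prefixes and name different animals. Under a filter of 5 CPM, Hdac7 in PFC had no value. With sequencing depth unknown, no counting interval can be given for members at a few CPM, such as Hdac7 in PFC and Hdac11 at E14.5.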
